A study of Mus musculus with 15 samples.

Results

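The genes described here are 49 genes of the DNA replication machinery and of the supply of its nucleotides. They were chosen by symbol from what their products are known to do, with earlier results of these data known. All 49 were listed among the 55335 gene identifiers of the count files, and all 49 passed the filter on low counts that left 13077 tested genes. RNA was sequenced from cultured mouse pre-B cells, 3 libraries titled MSL2WT and 3 titled MSL2KO. Both groups lacked SLP65 (the adaptor that relays pre-B cell receptor signals), descended from bone marrow cells cloned from a single cell, grew in medium with interleukin 7 and received no treatment. The MSL2KO line was made by electroporating a guide RNA against Msl2, which encodes a ubiquitin ligase of the MSL histone acetyltransferase complex, so each genotype is 1 line and the labels do not say whether its replicates were separate cultures. The genotype tags of all 6 RNA libraries say the opposite of their titles, so wild type and knockout follow the titles here, and the directions of all differences rest on them.

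Chromosomes are copied from origins that are licensed before S phase, when the origin recognition complex, CDC6 and CDT1 load a ring of the MCM2 to MCM7 proteins onto DNA. Kinases then add CDC45 and the GINS complex to the ring, which becomes the CMG helicase and unwinds the double strand. Polymerase alpha with primase lays down primers, polymerases delta and epsilon extend them, the clamp PCNA holds polymerases on the template, and ribonucleotide reductase and thymidylate enzymes keep deoxynucleotides available. Many of these genes are known targets of E2F factors, and large pre-B cells driven by interleukin 7 are a dividing stage of B cell development.

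Total counts ran from 14092278 to 20803227 per library, and 3 reads, the limit that a count of 0 allows for counting error only, correspond to 0.141 to 0.212 CPM. Levels throughout are CPM, with library totals scaled by TMM factors. Pre-B and B lineage markers, 10 of 11 of which were tested, summed to 1988 to 2117 CPM in the wild-type and 1966 to 1985 CPM in the knockout libraries. Within that list Il7r, the interleukin 7 receptor gene, fell from 82.0 ± 12.5 to 28.1 ± 11.3 CPM (SD, n = 3 each; log2 fold change -1.53, adjusted p 0.00392 in edgeR), and its part in the values below was not tested. Rag1 and Rag2, the recombinase genes, were at 0 in wild-type replicates 1 and 3 but had 34 and 27 reads in wild-type replicate 2, which stood apart. The knockout libraries had 29, 17 and 9 reads of Rag1 and 54, 44 and 37 reads of Rag2, and Rag2 did not pass (unadjusted p 0.0252, adjusted p 0.223). Lists of 4 to 5 T cell, myeloid and stromal markers each summed to at most 2.03 CPM in any library, with Lyz2, Elane, Dcn and Pdgfrb at 0 in all 6. Levels of Msl2 itself were 97.1, 99.3 and 92.3 CPM in the wild-type libraries (replicates 1, 2 and 3, the order used throughout) and 105, 103 and 121 CPM in the knockout. Its log2 fold change was 0.19 ± 0.08 (SE; adjusted p 0.302, edgeR). Reads summed over a gene cannot show a small edit, so the Msl2 level does not check the titles.

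Replication genes were nearly level between the lines. Of the 49, 1 fell in the knockout, Mcm5 of the replicative helicase, and 0 rose, at an adjusted p under 0.05 over all tested genes in edgeR. Among all 13077 tested genes, 2.79% fell and 1.80% rose, or 4.59% in either direction, so the number of calls among the replication genes was near the background. At an unadjusted p under 0.05 there were 3 of 49 (Mcm5, Lig1 and Pola1), where the share of all tested genes was 15.4%. DESeq2 called 1 of the 49, against 6.06% of all tested genes. With the replicate number as a block, edgeR called Mcm5 alone, against 7.23% of all tested genes. The knockout and wild-type libraries did not overlap for 4 of the 49 genes, against 20.9% of all tested genes. Of these, 2 were lower in the knockout (11.2% of all tested genes) and 2 higher (9.68%).

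The sizes of the differences were small. Log2 fold changes (knockout minus wild type) of the 49 genes had a median of 0.02, beside 0.00 for all tested genes, and 27 were positive and 22 negative. For 47 of the 49 the value lay within 0.2 of 0, and the exceptions were Mcm5 and Rpa3. So did 66.5% of all tested genes and 82.2% of those with a mean of at least 20 CPM. The 95% interval of the fold change lay inside 1.5-fold in both directions for 48 of 49 genes and for all but Mcm5. Among the tested genes with a mean of at least 20 CPM, the interval lay inside 1.5-fold for 92.9%, beside 97.9% of the 48 replication genes at that level. These intervals are not adjusted for the number of genes. They rest on 129 to 13737 reads per gene and library.

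**Figure D1:**
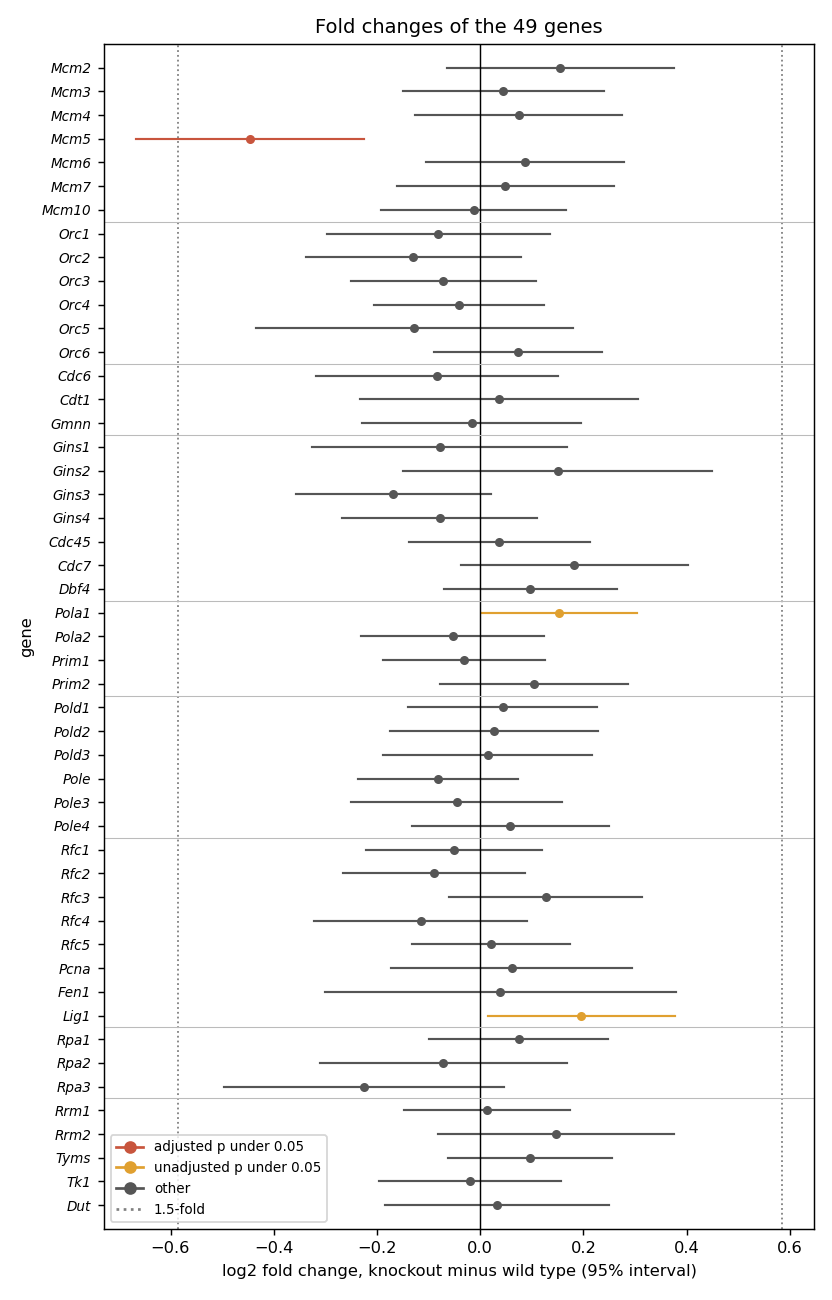
Log2 fold change of each of the 49 genes (knockout minus wild type, 3 libraries each) with its 95% interval, grouped by role from the MCM helicase at the top to nucleotide supply at the bottom. Mcm5 alone passed the adjusted threshold, and its interval is the one that crosses the dotted 1.5-fold lines.

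The MCM2 to MCM7 ring held the 1 called gene. Mcm5 (ENSMUSG00000005410.6, chromosome 8, 75109468 to 75128439, mm10), an ATPase subunit of the ring, had levels of 510, 479 and 595 CPM in the wild type and 369, 368 and 426 CPM in the knockout. Every knockout library lay below every wild-type library. Its mean fell from 528 ± 60.0 to 388 ± 33.1 CPM (SD, n = 3 each), 1.36-fold lower in the knockout, with a log2 fold change of -0.45 ± 0.10 (SE), a 95% interval from -0.67 to -0.22 and an adjusted p of 0.0316 in edgeR. Mcm5 no longer passed when a single library was left out, namely replicate 1 or 3 of the wild type (adjusted p 0.0728 and 0.0635) or 1 or 2 of the knockout (0.0999 and 0.135), or both libraries numbered 2 (0.142), while the log2 fold change stayed between -0.52 and -0.35 in all 15 alternative fits.

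None of the other 5 ring genes passed the test, and their fold changes were positive. Mcm2, a ring subunit that also carries histones at the fork, was at 422, 417 and 506 CPM in the wild type and 476, 472 and 550 CPM in the knockout, with a log2 fold change of 0.16 ± 0.10 (adjusted p 0.548). Its groups overlapped. Mcm3, Mcm4, Mcm6 and Mcm7 had log2 fold changes of 0.04, 0.07, 0.09 and 0.05 and adjusted p of 0.746 or more. Mcm10, which is not part of the ring and helps to start its unwinding, was at 209 ± 14.7 and 207 ± 12.8 CPM (-0.01). The CPM of Mcm5 divided by the mean CPM of the other 5 ring genes, a ratio in which gene lengths stay constant, was 1.10, 1.05 and 1.12 in the wild-type and 0.752, 0.761 and 0.763 in the knockout libraries. The ratio was given as a description. The same ratio for Mcm4 ran from 0.836 to 0.861 in the wild type and from 0.871 to 0.932 in the knockout. Mcm5 is in its denominator, so the fall of Mcm5 by itself raises the Mcm4 ratio in the knockout.

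**Figure D2:**
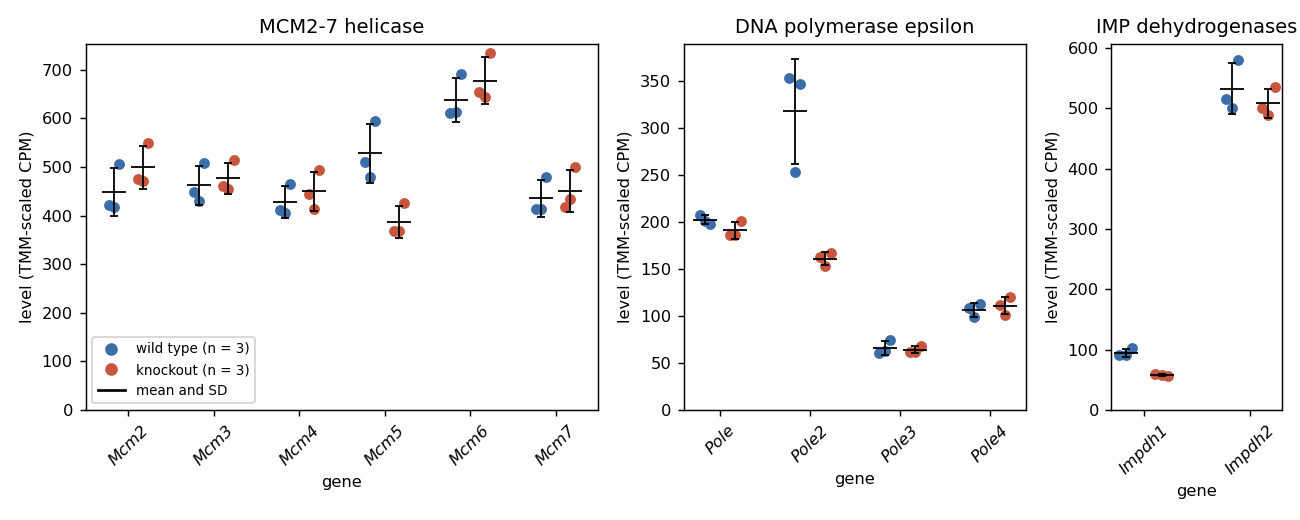
Levels (TMM-scaled CPM) of the ring genes Mcm2 to Mcm7, the polymerase epsilon subunits and the IMP dehydrogenases in each library, with bars for the mean and SD (n = 3). Knockout points lie below all wild-type points for Mcm5, Pole2 and Impdh1, while the other subunits overlap between groups.

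The stretch before the start of Mcm5 is shown because Mcm5 is the called gene and its letters match 3 motifs: those of E2F factors, of the CCAAT-binding factor NF-Y and of YY1, a factor the study also profiled. It runs from 250 to 42 bases before the start in RefSeq's promoter table (GRCm38.p6, plus strand, chr8:75109259-75109467) and ends where the annotated gene span begins. Capitals mark, in order, a YY1 match, a pair of overlapping E2F matches on opposite strands and the first of 3 CCAAT boxes.
Mcm5: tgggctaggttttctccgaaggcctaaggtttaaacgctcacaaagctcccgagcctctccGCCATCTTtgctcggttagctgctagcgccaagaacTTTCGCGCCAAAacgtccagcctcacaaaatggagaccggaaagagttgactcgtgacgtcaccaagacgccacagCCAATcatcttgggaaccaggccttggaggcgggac
The E2F letters searched were TTTCCCGC, TTTCGCGC, TTTGCCGC and TTTGGCGC, the YY1 letters AAGATGGC and the CCAAT box CCAAT, each on both strands. A match is a description of letters and says nothing of binding, which was not analysed here.

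E2F letters were also common around the starts of replication genes that did not pass the test. Windows of 300 bases around the start (250 before, 50 after) were given for 41 of the 49 genes, 51 windows in all. Of these windows 31.4% held an E2F match, beside 2.26% of all 32851 windows and 2.85% of the 21263 windows of protein-coding genes. CCAAT stood in 49% of the windows (37.4% of all), and YY1 letters in 5.88% (2.75% of all), namely those of Mcm5, Mcm10 and Rpa2. The cell cycle homology region letters TTTGAA, searched on both strands as well, stood in 15.7% (17.9% of all). The 15 genes with an E2F match had a median log2 fold change of 0.04 and the 26 without one a median of 0.02. Sites were found by these letters, so the likeness of the matches is set by the search. Matches before the start were also found in Orc1, Orc3, Pole4 and Rfc3, which are not shown. As examples, the sites of Mcm5 and 5 other members follow, 30 bases each on the gene's strand, with the E2F match in capitals.
Mcm5: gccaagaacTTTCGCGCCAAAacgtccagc
Mcm6: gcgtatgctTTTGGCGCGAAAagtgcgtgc
Mcm7: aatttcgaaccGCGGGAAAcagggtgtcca
Cdc6: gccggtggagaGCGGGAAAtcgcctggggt
Gins3: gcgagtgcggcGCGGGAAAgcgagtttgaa
Pola1: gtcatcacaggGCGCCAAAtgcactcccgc
They lie at chr8:75109347-75109376 (Mcm5), chr1:128359795-128359824 (Mcm6), chr5:138172030-138172059 (Mcm7), chr11:98908002-98908031 (Cdc6), chr8:95633507-95633536 (Gins3) and chrX:93632275-93632304 (Pola1) in GRCm38.p6. Mcm6, Mcm7 and Pola1 are on the minus strand. The match begins 153 bases before the start in Mcm5, 110 in Mcm6 and 165 in Mcm7, by the starts of the promoter table. The sites of Mcm7, Cdc6 and Pola1 lie inside the annotated gene spans, and those of Mcm5, Mcm6 and Gins3 lie outside them.

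Origin recognition genes passed the test in neither direction. Neither edgeR nor DESeq2 called any of the 6 (0 at an unadjusted p under 0.05), and log2 fold changes ran from -0.13 to 0.07 around a median of -0.08. Orc2, a core subunit, was at 138, 144 and 174 CPM in the wild type and 132, 139 and 146 CPM in the knockout (log2 fold change -0.13 ± 0.09, adjusted p 0.615). Orc6, the smallest subunit, was at 85.4, 84.3 and 93.7 CPM and at 95.8, 90.0 and 91.5 CPM (0.07 ± 0.07, adjusted p 0.747). In both genes the groups overlapped. The licensing factors were as close, with 0 of 3 called by either tool and 0 at an unadjusted p under 0.05. Cdc6, the loader ATPase, was at 94.0, 93.0 and 106 CPM and at 81.2, 88.3 and 107 CPM (-0.08 ± 0.11, adjusted p 0.815). Cdt1, which brings the ring to the origin, was at 98.3, 84.6 and 109 CPM and at 91.7, 90.8 and 117 CPM (0.04 ± 0.12, adjusted p 0.945). Gmnn, which encodes the CDT1 inhibitor geminin, was at 91.7 ± 10.4 and 90.7 ± 6.69 CPM.

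Among genes for assembling and firing the CMG helicase, Gins3 was separated between groups without passing the test. Such separation was seen for 20.9% of all tested genes. Gins3, a GINS subunit, was at 28.1, 29.1 and 30.3 CPM in the wild type and 25.9, 25.4 and 26.7 CPM in the knockout, so its groups did not overlap. Its log2 fold change was -0.17 ± 0.09, with an adjusted p of 0.397, and did not pass. Cdc7, the kinase that phosphorylates the MCM ring, was at 79.0, 76.9 and 67.9 CPM and at 96.4, 80.0 and 77.6 CPM (0.18 ± 0.10, adjusted p 0.453), and its groups overlapped. Of the 7 genes in this group edgeR and DESeq2 each called 0, with 0 at an unadjusted p under 0.05. Cdc45 itself was at 126 ± 8.71 and 129 ± 7.16 CPM, and Dbf4, the activating partner of CDC7, at 163 and 174 CPM on average (log2 fold change 0.10 ± 0.08).

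Among polymerase genes the catalytic subunit of polymerase alpha, Pola1, was separated between groups, as were 20.9% of all tested genes. It was at 184, 172 and 175 CPM in the wild type and 200, 192 and 198 CPM in the knockout, a log2 fold change of 0.15 ± 0.07 with an unadjusted p of 0.0462 and an adjusted p of 0.312 in edgeR. Its accessory subunit gene Pola2 was at 139, 143 and 155 CPM and at 132, 138 and 152 CPM (-0.05 ± 0.08, adjusted p 0.857), and the primase genes Prim1 and Prim2 were at -0.03 and 0.10 on the log2 scale. Neither tool called any of the 4 polymerase alpha-primase genes, and 1 was at an unadjusted p under 0.05. The 6 listed genes of polymerases delta and epsilon had log2 fold changes between -0.08 and 0.06. Pole, the catalytic subunit of polymerase epsilon, was at 208, 201 and 198 CPM and at 186, 186 and 201 CPM (-0.08 ± 0.07, adjusted p 0.689). Pole4, a histone-fold subunit, was at 108, 98.8 and 113 CPM and at 111, 102 and 120 CPM (0.06 ± 0.09, adjusted p 0.853). For these 6 genes edgeR and DESeq2 each called 0, with 0 at an unadjusted p under 0.05.

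Lig1, the ligase that seals Okazaki fragments, had the highest log2 fold change of the 49 genes. It was at 171, 161 and 174 CPM in the wild type and 185, 182 and 212 CPM in the knockout, 0.20 ± 0.08 on the log2 scale, with an unadjusted p of 0.036 and an adjusted p of 0.272. Its groups did not overlap (20.9% of all tested genes), but it did not pass. Rfc4, a clamp loader subunit, was at 77.2, 68.9 and 84.2 CPM and at 73.6, 64.7 and 74.3 CPM (-0.12 ± 0.09, adjusted p 0.663). Pcna was at 586 ± 76.3 and 611 ± 51.7 CPM (0.06 ± 0.11). Of the 8 clamp, loader, flap and ligase genes edgeR and DESeq2 each called 0, with 1 at an unadjusted p under 0.05.

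RPA coats single-stranded DNA as a trimer, and its genes differed in sign. Rpa3, the small subunit gene, was at 55.0, 51.4 and 69.2 CPM in the wild type and 56.3, 48.3 and 45.7 CPM in the knockout (-0.22 ± 0.12, adjusted p 0.45). Its groups overlapped, and the value was -0.02 without both libraries numbered 3, which hold its highest and its lowest level. Rpa1, the large subunit gene, was at 317, 321 and 351 CPM and at 368, 327 and 348 CPM (0.07 ± 0.08, adjusted p 0.761). Genes of nucleotide supply overlapped as well. Rrm2, the regulated subunit of ribonucleotide reductase, was at 561, 535 and 638 CPM and at 616, 580 and 723 CPM (0.15 ± 0.10, adjusted p 0.595). Tk1, the thymidine salvage kinase, was at 92.5, 89.1 and 98.3 CPM and at 99.7, 89.9 and 86.5 CPM (-0.02 ± 0.08, adjusted p 0.956), and its sign turned with library totals in place of TMM (0.0012). Rrm1, Tyms and Dut, for the large reductase subunit, thymidylate synthase and dUTPase, had log2 fold changes of 0.01, 0.10 and 0.03. In these 8 RPA and nucleotide genes edgeR and DESeq2 each called 0, with 0 at an unadjusted p under 0.05.

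**Figure D3:**
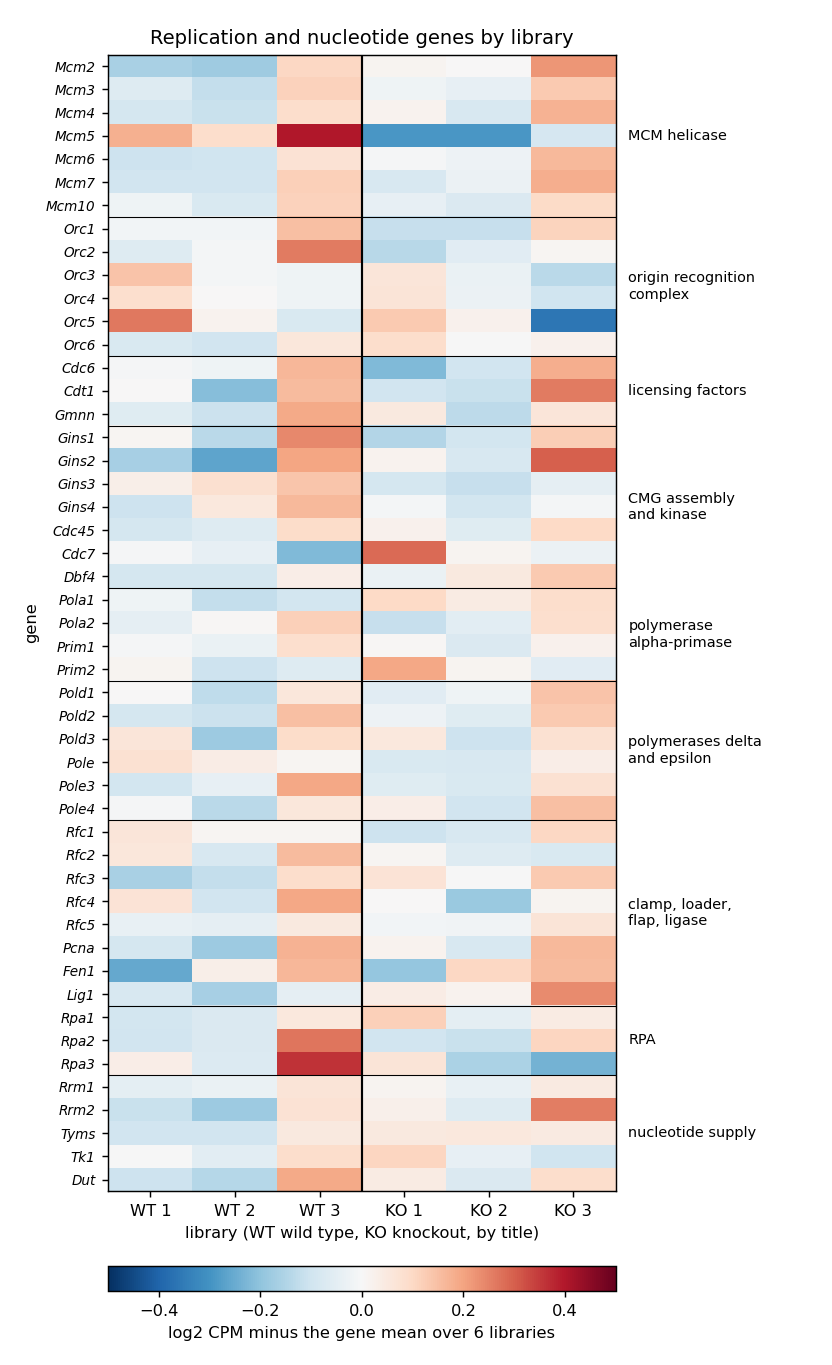
Each cell is a gene's log2 CPM in 1 library minus that gene's mean over the 6 libraries (colour bar), with genes grouped by role in rows and wild-type (WT) and knockout (KO) libraries in columns. The columns of replicate 3 are mostly red in both groups, and the rows of Mcm5, Gins3, Pola1 and Lig1 are separated between the groups, with Mcm5 the one that passed the test.

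Replication genes also differed together between libraries of the same group. Replicate 3 was the highest of its group for 41 of 49 genes in the wild type and for 37 in the knockout, and in both groups for 35 (71.4%), beside 20.1% of all tested genes. The median gene was 1.12-fold above the mean of replicates 1 and 2 in wild-type replicate 3 and 1.09-fold above it in knockout replicate 3. Summed levels of the 49 genes were 9044, 8779 and 10078 CPM in the wild-type and 9279, 8968 and 10060 CPM in the knockout libraries. Exceptions were found in the origin recognition complex, where Orc3, Orc4 and Orc5 were lowest in replicate 3 of both groups. Orc5 was at 34.1, 28.7 and 26.9 CPM in the wild type and 31.0, 28.8 and 22.0 CPM in the knockout. Cdc7 was lower in replicate 3 than in the others in both groups, too. Leaving out both libraries numbered 3 was chosen after seeing the data. Then Mcm5 was still the 1 called gene (log2 fold change -0.42, adjusted p 0.0332, where 2.11% of tested genes were called), and the median of the 49 was 0.04. What set the replicate 3 libraries apart was not tested.

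Other genes of replication and nucleotide supply were taken from a list of 80 identifiers, of which 78 were tested. Of these, 2 fell and 0 rose, near the background (2.79% of all tested genes fell and 1.80% rose). The genes that fell were Pole2, the second subunit of polymerase epsilon, and Impdh1, an IMP dehydrogenase of guanine nucleotide synthesis. The median log2 fold change of the 78 was 0.00. Pole2 was at 353, 253 and 347 CPM in the wild type and 162, 153 and 167 CPM in the knockout, 318 ± 55.8 against 161 ± 6.88 CPM (SD, n = 3 each). Knockout libraries all lay below the lowest wild-type library, and the log2 fold change was -0.98 ± 0.12 (adjusted p 0.00133), 1.97-fold lower. The ratio of Pole2 to Pole was 1.70, 1.26 and 1.75 in the wild type and 0.871, 0.825 and 0.829 in the knockout. Impdh1 was at 90.9, 91.0 and 103 CPM and at 59.0, 58.2 and 56.0 CPM, 1.64-fold lower (-0.72 ± 0.08, adjusted p 0.000596), again without overlap. Impdh2, the second IMP dehydrogenase gene, was at 532 ± 42.4 and 508 ± 23.7 CPM (-0.07, adjusted p 0.81). Both calls held in all 15 alternative fits.

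By role, 1 of 32 other fork and origin factors and 1 of 27 other nucleotide enzymes fell, and 0 of either rose, again few genes beside that background. The nucleotide enzymes had 21 negative values of 27 (median -0.07), where 6411 of all 13077 tested genes were negative. Among 19 tested genes of E2F regulation and S phase entry, 15 had positive values (median 0.10), where 6666 of all 13077 were positive. These counts of signs were not tested. The edgeR test called 0 of them and DESeq2 called 2 (6.06% of all tested genes), and 4 had an unadjusted p under 0.05 in edgeR (15.4% of all tested genes). Mki67, a marker of dividing cells, was at 863, 855 and 784 CPM in the wild type and 1012, 1010 and 968 CPM in the knockout (0.26 ± 0.08, adjusted p 0.0966 in edgeR and 0.00881 in DESeq2). Cdkn1b, which encodes the cell cycle inhibitor p27, was at 62.9, 58.3 and 52.9 CPM and at 86.7, 69.3 and 67.8 CPM (0.36 ± 0.11, adjusted p 0.101 and 0.0436). In both genes the groups did not overlap, with the knockout higher. This was so for 4 of these 19 genes and for 9.68% of all tested genes. Mki67 and Cdkn1b were chosen after their values were seen.

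**Figure D4:**
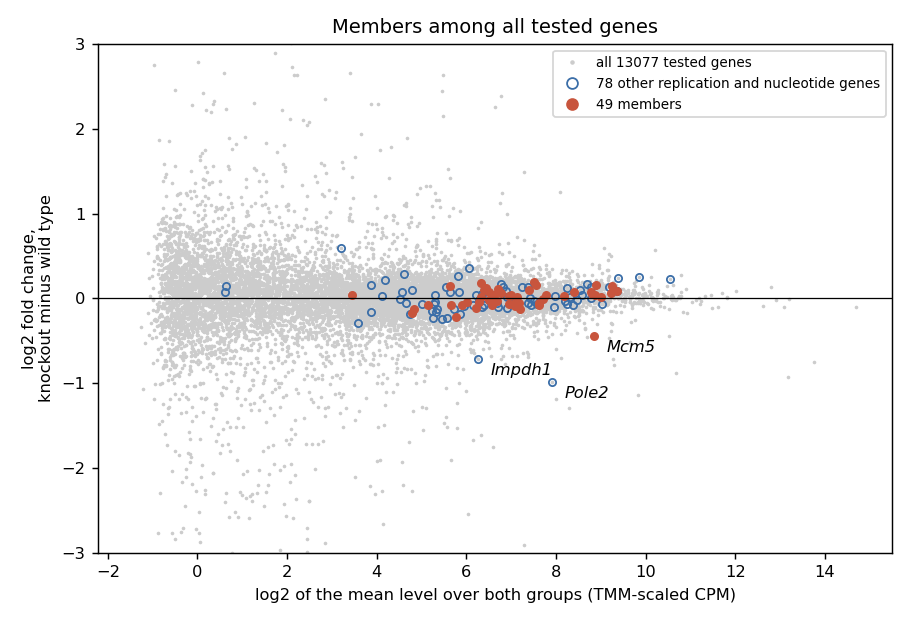
Log2 fold change (knockout minus wild type) against the log2 of the mean level for all 13077 tested genes (grey), the 49 replication genes (red) and 78 other genes of the pathway (blue circles). The axis ends at 3 on either side, beyond which 68 genes lie; Mcm5, Pole2 and Impdh1 sit below the band of the others.

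Genes next to those that fell were also compared, using RefSeq positions in mm10 and chosen after the values were seen. Of all tested genes, 2.79% fell and 4.59% were called in either direction, and the counts below are few. Within 500 kb of Mcm5, 3 other genes were tested, and 1 fell. This was Hmox1, the heme oxygenase gene, which ends at 75100593, before Mcm5 begins, and was at 4.38, 4.17 and 3.12 CPM in the wild type and 0.808, 1.13 and 0.33 CPM in the knockout (log2 fold change -2.31 ± 0.37, adjusted p 0.00532). Tom1 and Hmgxb4, farther on the same side, had values of -0.12 and 0.00 (adjusted p 0.864 and 0.995). Around Pole2 (chromosome 12, 69201773 to 69228205), 15 other genes were tested and 5 fell: Dnaaf2, 9330151L19Rik, Klhdc1, Klhdc2 and Nemf. Dnaaf2, a dynein assembly factor, was at 69.9 ± 12.5 and 24.4 ± 0.337 CPM (-1.51 ± 0.13, adjusted p 0.000205), and Klhdc2, a substrate receptor of a ubiquitin ligase, at 1257 ± 189 and 570 ± 53.8 CPM (-1.14 ± 0.12, adjusted p 0.000592). Mgat2, a glycosyltransferase gene beyond Dnaaf2, did not pass (-0.41, adjusted p 0.0503). The span of 9330151L19Rik (69197211 to 69199868) lies wholly inside that of Dnaaf2 (69189087 to 69200083), so they may not be separate observations. The span of Pole2 overlaps that of Klhdc1 by 477 bases, so some reads could belong to either. Nemf lost its call without any 1 library other than wild-type replicate 2 (adjusted p from 0.0535 to 0.111). Within 500 kb of Impdh1, edgeR called 0 of 8 other tested genes, with 0 at an unadjusted p under 0.05 (15.4% of all tested genes).

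**Figure D5:**
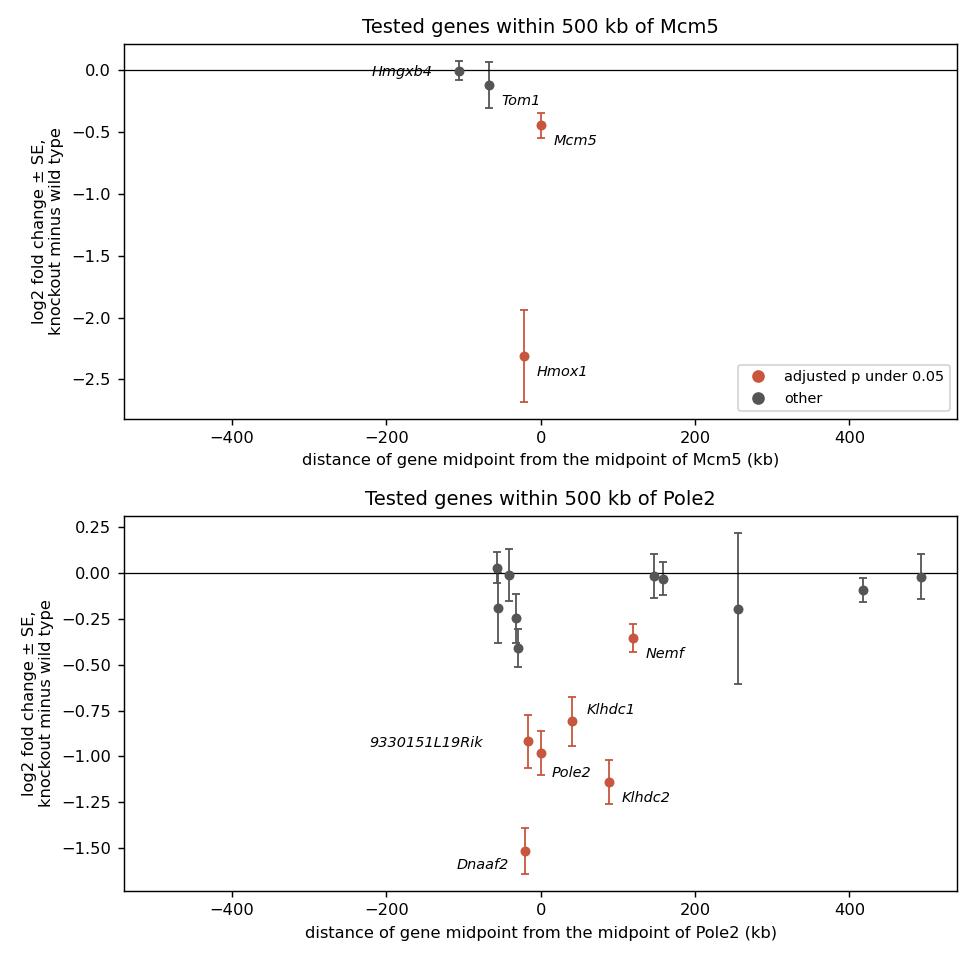
Log2 fold change with its SE (knockout minus wild type) for tested genes within 500 kb of Mcm5 (top) and Pole2 (bottom) against the distance of their midpoints in kb. Hmox1 lies far below Mcm5, and 5 genes around Pole2, 2 on 1 side and 3 on the other, fell as it did.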

How the data were processed

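The deposited files of the 6 RNA libraries list raw, unnormalised read counts by gene, per the file headers. Per the labels' protocols, ribosomal RNA was removed before library preparation. Tools named in the submitters' processing notes include STAR (2.5.3a) and featureCounts (2.0.0), and the build is mm10. For annotation, strand setting and multiply matched reads: not given in the sources used here. The 9 samples of immunoprecipitated chromatin and input were not used here.

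Groups follow the titles. Genes were kept by filterByExpr, scaled by TMM and tested with edgeR 4.0.16 (quasi-likelihood, no covariate, biological coefficient of variation 0.109) in R 4.3.3, with Benjamini-Hochberg adjustment over all tested genes. Each genotype is 1 line, so the p-values rest only on how far these libraries vary, and that variation may be technical. SEs come from the fold change and F statistic. DESeq2 1.42.0, limma-voom (limma 3.58.1), other scalings and filters, a replicate block and fits without 1 or 2 libraries were alternatives (those without 2 were added after seeing the data). All replicate pairs differed by more than sampling noise (chi-square per degree of freedom 7.45 to 20.0). The tests were checked on simulated counts.

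The members and lists were chosen with earlier results of these data known. Members named with values in every library are those at an unadjusted p under 0.05 and the highest and lowest fold change of each role group; of the other pathway genes, the called ones. Other genes are named as context, among them Orc5 and Fen1, chosen after their values were seen. A further marker list is not reported here. Exon lengths were not available for a comparison of levels per length. Ratios between genes were therefore read only across libraries, and the genes with few reads are given without correction for length. Gene spans and promoter windows are RefSeq's (GRCm38.p6), matched by symbol for 49 and 41 of 49 genes.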

Additional observations from a re-analysis of the deposited data

How the results depend on the processing

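The median log2 fold change of the 49 genes stayed between -0.03 and 0.08 in 15 alternatives, within the spread between libraries, and 0 genes rose in any. The count that fell was 1 in 10 alternatives and 0 without both libraries numbered 2, and leaving out 1 library at a time gave 0 to 1. Counts over all tested genes moved more: without a low-count filter 482 were higher and 721 lower, with a minimum mean log2 CPM of 2 there were 232 lower, then 224 lower without both libraries numbered 2, and 115 higher and 170 lower without both numbered 3. Leaving out 1 library at a time gave 138 to 227 higher and 242 to 316 lower. Other pathway genes that rose numbered 2 without the low-count filter (Cdkn1a and Cdkn1b) and 2 in DESeq2 (Cdkn1b and Mki67). Values near 0 changed sign: Tk1 was at 0.0012 with library totals only, at -0.0802 to 0.0257 with 1 library left out and at 0.0683 without both numbered 3, Cdt1 at -0.0915 to 0.13 and Pole4 at -0.00041 to 0.13 with 1 library left out. The cause of these changes was not tested. Each alternative fit differed from the main one in its scaling, its test, its set of genes or its number of libraries.

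Replicate numbers are only numbers in the labels. Over all tested genes, the deviations of same-numbered libraries correlated at 0.0643, 0.225 and 0.435, and wild-type replicate 1 correlated best with knockout replicate 2. That correlation was 0.265, above the 0.225 of the libraries numbered 2. Over the 49 genes alone the same-numbered pairs correlated at 0.55, 0.568 and 0.61, and each library correlated best with its own number. These genes differed together between libraries and were chosen with earlier results known, so they cannot show whether the libraries were paired by design. With the replicate number as a block, 381 genes were higher and 565 lower (7.23% called), Mcm5 remained the 1 member called (adjusted p 0.00396), and 3 other pathway genes rose (Cdkn1b, Mki67 and Uhrf1). Depth limits little here, since the least counted member, Fen1, had 129 reads or more in each library.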

Other observations

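A few pathway genes had fewer reads than the rest of their lists, which a reader using these counts may want to look at again. E2f6, a repressor of the E2F family, had no read in any of the 6 libraries. Nme2, a nucleoside diphosphate kinase gene, had 15 to 34 reads per library, and Chtf8, of an alternative clamp loader, 18 to 37 under 1 identifier and 0 in all 6 libraries under a second. Fen1, the flap endonuclease of Okazaki fragment processing, was at 9.11, 11.1 and 12.2 CPM in the wild type and 9.51, 11.7 and 12.1 CPM in the knockout, so the groups overlapped. In RefSeq's annotation the span of Fen1 overlaps Tmem258 by 192 bases and that of Chtf8 overlaps Derpc by 9731 bases. Of the 49 replication genes, 19 overlap another annotated gene and 12 another protein-coding gene, Mcm5 not among them. How reads in shared stretches were counted is not given in the sources used here, and the part of such overlaps in these low counts was not tested.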
